A study of Mus musculus with 4 samples.

Results

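Later B cell surface and signalling genes are described here in LSK cells of mouse bone marrow, the lineage-negative Sca-1+ Kit+ fraction that holds blood stem cells and multipotent progenitors. The set is a list of 7 genes chosen by name, Ms4a1, Cd22, Cd72, Cr2, Fcrla, Blk and Bank1, of 26286 genes in the count table. Of these, 3 were found by symbol in the deposited expression tables and 4 through a RefSeq gene table. All 7 members passed the filter on low counts, which left 14912 tested genes. RNA sequencing was done on 4 libraries, 2 labelled Hhex-deleted, called labelled-deleted below, and 2 wild-type. The labels give both groups the strain C57BL/6, the same tissue and the same sort, and differ in genotype, Hhex deletion or wild-type. Hhex encodes a homeobox transcription factor. How and in which cells the deletion was made, the age of the mice and any pooling of animals were not stated in the labels. Separate mice for the libraries were not stated either, and the p-values then speak only of the spread among these 4 libraries.

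B cells arise in the marrow from lymphoid-primed progenitors, and their genes come on in stages. Transcription factors, recombinase and surrogate light chain come first, and much of the surface equipment of mature B cells comes later. That equipment tunes the B cell receptor. Blk and Bank1 act inside the cell near the receptor. Cr2 couples complement to it. Cd22 and Cd72 carry inhibitory signals that recruit the phosphatase encoded by Ptpn6. A sort that discards lineage-positive cells is designed to leave mature B cells out.

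Total counts per library ranged from 27871827 to 29501591, so that 1 read corresponded to 0.0332 to 0.0365 CPM (counts scaled to library size with TMM factors). Hhex stood at 179 and 188 CPM in the labelled-deleted libraries, against 127 and 115 in the wild-type pair. Its log2 fold change, labelled-deleted over wild-type, was 0.60 ± 0.09 (SE; adjusted p by edgeR = 0.0271), so it passed the test as higher. Counts over the whole gene would include any exons outside a deleted part. They do not check the deletion, so directions here refer to the libraries as labelled. In labelled-deleted replicate 1, 2662 CPM were of Xist, the RNA that silences an X chromosome in females, and 0.343 CPM of the Y-linked Ddx3y. The other labelled-deleted library had 2.59 and 138 CPM, and the wild-type libraries had 2.66 and 1.89 CPM of Xist and 134 and 124 CPM of Ddx3y. Each member is therefore also given without that library where its direction or size changed. The LSK markers were present, with Kit, the receptor used in the sort, at 605 and 698 CPM in the labelled-deleted pair, against 566 and 601 in the wild-type pair, and Ly6a, which encodes Sca-1, at 20.7 and 42.5 CPM in the labelled-deleted pair, against 25.4 and 25.4 CPM in wild-type.

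A RefSeq promoter was at hand for 5 of the 7 members (build GRCm38.p6), and the 250 bases before the annotated start are shown for Cd72, the member with by far the most reads, and Cd22, its inhibitory counterpart with few reads. In Cd72 (chr4:43454627-43454876, minus strand) the capitals mark a PU.1-type core, GAGGAA or its reverse complement TTCCTC. In Cd22 (chr7:30879029-30879278, minus strand) they mark an Ebf-type palindrome, TCCC and GGGA with any 2 bases between them.
Cd72: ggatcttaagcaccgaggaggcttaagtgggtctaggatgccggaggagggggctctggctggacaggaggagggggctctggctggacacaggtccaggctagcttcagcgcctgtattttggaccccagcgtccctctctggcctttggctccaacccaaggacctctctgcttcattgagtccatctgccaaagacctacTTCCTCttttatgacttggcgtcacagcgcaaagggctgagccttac
Cd22: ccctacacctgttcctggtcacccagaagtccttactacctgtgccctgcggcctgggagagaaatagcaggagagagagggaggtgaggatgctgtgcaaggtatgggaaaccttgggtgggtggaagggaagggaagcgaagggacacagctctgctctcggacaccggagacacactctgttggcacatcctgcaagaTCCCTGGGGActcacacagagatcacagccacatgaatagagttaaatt
The PU.1-type core was found once in Cd72, starting at position -47 from the annotated start, and once in Fcrla, and 23.3% of 32851 promoter windows of the same length hold it on either strand. The Ebf-type palindrome was found once in Cd22, starting at position -49, and in none of the other 4 windows, and 0.779% of all windows hold it. A homeodomain-type core, ATTAA or TTAAT, was found in Fcrla (2 matches) and Cr2 (1 match), against 24.9% of all windows. No match of one motif overlapped a match of another. These are letter matches, not measured binding.

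Cd72 differed far more from the other 6 members than any member did between the groups. Per gene length, Cd72 had a mean of 30.6 RPKM (CPM divided by gene length in kilobases) over the 4 libraries, higher than 76.1% of tested genes. Fcrla followed with a mean of 0.88 RPKM, so the level of Cd72 was 34.8 times that of the next member. Bank1 had 0.624, Blk 0.404, Ms4a1 0.209, Cd22 0.193 and Cr2 0.0977 RPKM, and of these 6 genes even Fcrla stood above only 14.1% of tested genes. The ranges over the 4 libraries overlapped for each pair of neighbours in this order from Fcrla down to Cr2, and Cd72 alone stood clear. Over the other 6 members together there were 166 and 261 reads in the labelled-deleted libraries and 133 and 185 reads in wild-type. Single values ran from 4 to 77 reads, so counting error alone is wide. In bulk RNA, fewer cells of a type and less RNA per cell cannot be told apart.

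None of the 7 members passed the test between the groups. By edgeR's quasi-likelihood test, adjusted over all tested genes, 0 were higher and 0 lower, where 1.48% of tested genes were higher and 1.12% lower, 2.6% in all. All members but Cd72 had a mean under 3 CPM, and of the 2919 tested genes under that level 1.85% were called. At an unadjusted p under 0.05 there was 1 member by edgeR, Blk, against 15.8% of tested genes. After adjustment DESeq2 and limma-voom called 0 members, where they called 6.63% and 1.35% of tested genes. Before adjustment they also called 0 members, and the share of all tested genes at that threshold was not counted for these tools. The members' log2 fold changes, labelled-deleted over wild-type, had a median of 0.37 and ran from -0.16 to 1.12, beside a median of -0.0055 over all tested genes. The groups did not overlap for 2 of 7 members, Cd22 and Blk, both higher, where 21.9% of tested genes were higher and 45.5% separated in either direction.

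**Figure D1:**
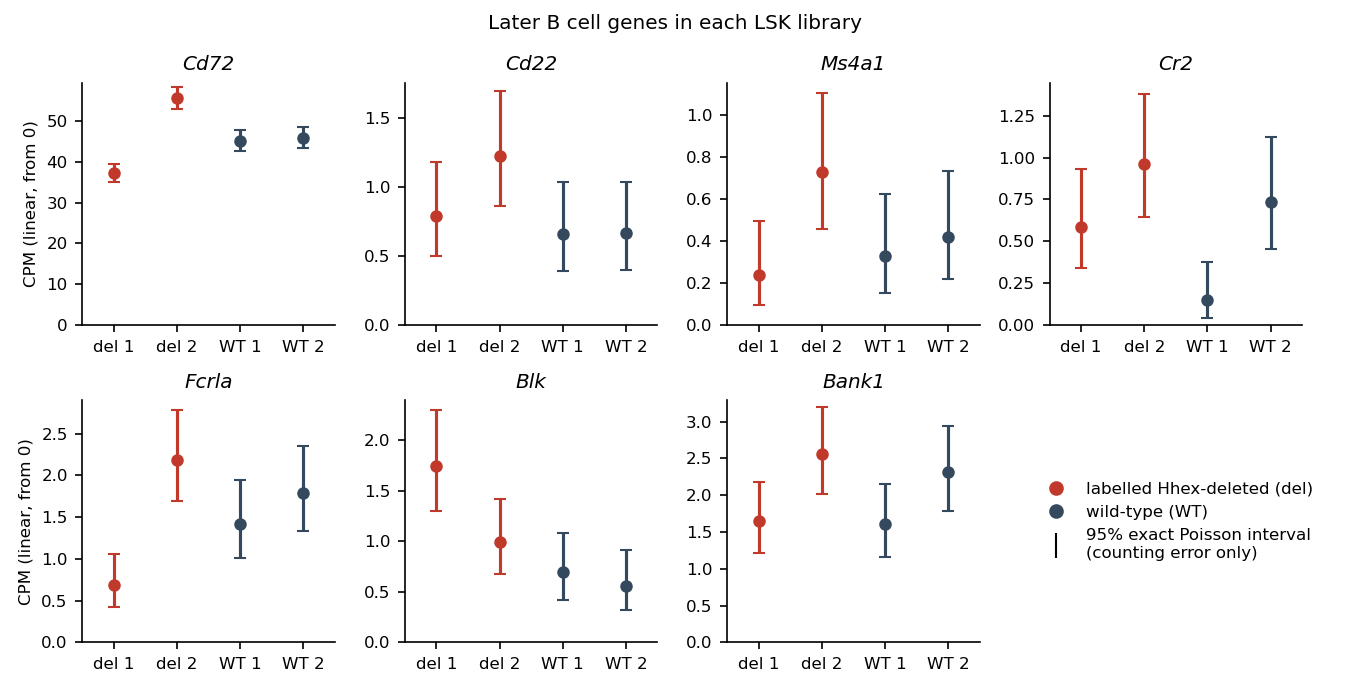
CPM of each gene (linear axis from 0) in the 2 labelled-deleted libraries and the 2 wild-type libraries, with 95% exact Poisson intervals that cover counting error only. In Cd72 the 37.3 and 55.6 CPM of the labelled-deleted libraries lie on either side of the wild-type values, and Blk and Cd22 are the genes whose groups do not overlap.

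Among the inhibitory receptors, Cd72, a lectin-like receptor that dampens B cell receptor signals, had 1089 and 1676 reads in the labelled-deleted libraries and 1239 and 1312 reads in wild-type. These were 37.3 and 55.6 CPM in the labelled-deleted pair, against 45.2 and 45.9 CPM in wild-type. The wild-type libraries nearly coincided, and the labelled-deleted libraries lay below and above them. The exact Poisson intervals of these 2 libraries, 1025 to 1156 and 1597 to 1758 reads, did not overlap, so their difference exceeded counting error. The log2 fold change came to 0.03 ± 0.19 (SE; adjusted p by edgeR = 0.973), with an approximate 95% range of -0.35 to 0.41. It was 0.29 without labelled-deleted replicate 1 and -0.28 without labelled-deleted replicate 2, so its sign rests on which of these libraries is kept. In the authors' deposited log2 RPKM tables Cd72 stood at 4.72 and 5.31 in the labelled-deleted pair, against 4.98 and 5.01 in wild-type, the same order of libraries. Cd72 overlaps Tesk1 in the RefSeq annotation, and the strand setting of the counting is not stated, so reads in the shared stretch cannot be assigned. Tesk1, a kinase gene, had 29.7 and 36.9 CPM in the labelled-deleted pair, against 31.9 and 32.0 in the wild-type pair, with the same order between the labelled-deleted libraries, and its part in the Cd72 values was not tested.

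Cd22, a sialic acid-binding lectin of B cells that carries inhibitory motifs in its tail, had 23 and 37 reads in the labelled-deleted libraries and 18 and 19 reads in wild-type. These were 0.788 and 1.23 CPM in the labelled-deleted pair, against 0.657 and 0.665 CPM in wild-type. Both labelled-deleted libraries were above both wild-type libraries, but the counting intervals of all 4 overlapped. The log2 fold change came to 0.61 ± 0.39 (SE; adjusted p by edgeR = 0.556), and it was 0.26 without labelled-deleted replicate 2 and 0.89 without replicate 1.

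Cr2, which in the mouse encodes both complement receptors CD21 and CD35 from a single gene, was the lowest member per length. It had 17 and 29 reads in the labelled-deleted libraries and 4 and 21 reads in wild-type. The widest gap lay within wild-type, where the Poisson intervals of 1.09 to 10.2 and 13.0 to 32.1 reads did not overlap. The log2 fold change of 0.80 ± 0.71 (SE; adjusted p by edgeR = 0.707) became 0.07 when wild-type replicate 1 was left out, and 2.38 when the other wild-type library was. It was 1.11 without labelled-deleted replicate 1 and 0.40 without labelled-deleted replicate 2.

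Ms4a1, which encodes CD20, a membrane protein of B cells and the target of antibodies that deplete them, had 7 and 22 reads in the labelled-deleted libraries and 9 and 12 reads in wild-type. The lowest and the highest values were both in the labelled-deleted libraries, and the groups overlapped. The log2 fold change came to 0.37 ± 0.62 (SE; adjusted p by edgeR = 0.86), and it was -0.63 without labelled-deleted replicate 2 and 0.95 without replicate 1.

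Fcrla, an Fc receptor-like protein that stays inside B cells and binds immunoglobulin, had 20 and 66 reads in the labelled-deleted libraries and 39 and 51 reads in wild-type. Again the labelled-deleted libraries held both extremes, with Poisson intervals of 12.2 to 30.9 and 51.0 to 84.0 reads. It was the member with the largest ratio between these 2 libraries, 3.2, against 1.25 between the wild-type libraries. The log2 fold change came to -0.16 ± 0.55 (SE; adjusted p by edgeR = 0.942), and the sign turned to 0.45 without labelled-deleted replicate 1 and to 0.03 without wild-type replicate 2. The pseudogene Gm2962 overlaps Fcrla and was far more abundant, at 37.3 and 35.8 CPM in the labelled-deleted pair, against 39.2 and 36.9 in the wild-type pair, and whether its reads enter the Fcrla count was not tested.

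Among the intracellular members, Blk, a Src family kinase of B cells, had 51 and 30 reads in the labelled-deleted libraries and 19 and 16 reads in wild-type. These were 1.75 and 0.995 CPM in the labelled-deleted pair, against 0.693 and 0.56 CPM in wild-type, and both labelled-deleted libraries were above both wild-type libraries. Its log2 fold change, 1.12 ± 0.42 (SE), was the largest of the 7 genes. The edgeR p was 0.0349 before adjustment and 0.261 after it. DESeq2 and limma-voom gave unadjusted p-values of 0.121 and 0.0515. Without labelled-deleted replicate 1, which carries the female marker, the log2 fold change was 0.66 (edgeR adjusted p = 0.51).

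Bank1, a scaffold that links the kinase Lyn to calcium release, had 48 and 77 reads in the labelled-deleted libraries and 44 and 66 reads in wild-type. Each group held a library near 1.6 CPM and a higher one, 1.64 and 2.55 CPM in the labelled-deleted pair, against 1.61 and 2.31 CPM in wild-type. The log2 fold change came to 0.10 ± 0.35 (SE; adjusted p by edgeR = 0.94), and its sign rests on which library is kept. It was 0.38 without labelled-deleted replicate 1, -0.25 without labelled-deleted replicate 2, -0.14 with wild-type replicate 1 left out, and 0.40 with wild-type replicate 2 left out.

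The replicates of a group had a common order in most members. In 6 of 7 members, all but Blk, replicate 2 was above replicate 1 in both groups, as in 29.9% of tested genes. In wild-type the Poisson intervals of the 2 libraries overlapped for each of these 6 but Cr2. In the labelled-deleted pair they overlapped for each but Cd72 and Fcrla. The same 6 members were highest of the 4 libraries in labelled-deleted replicate 2, as were 28.8% of tested genes. In Blk replicate 1 was the higher library in each group. Ratios of replicate 2 to replicate 1 ran from 0.57 for Blk to 3.2 for Fcrla in the labelled-deleted libraries, and from 0.808 for Blk to 5.04 for Cr2 in wild-type.

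**Figure D2:**
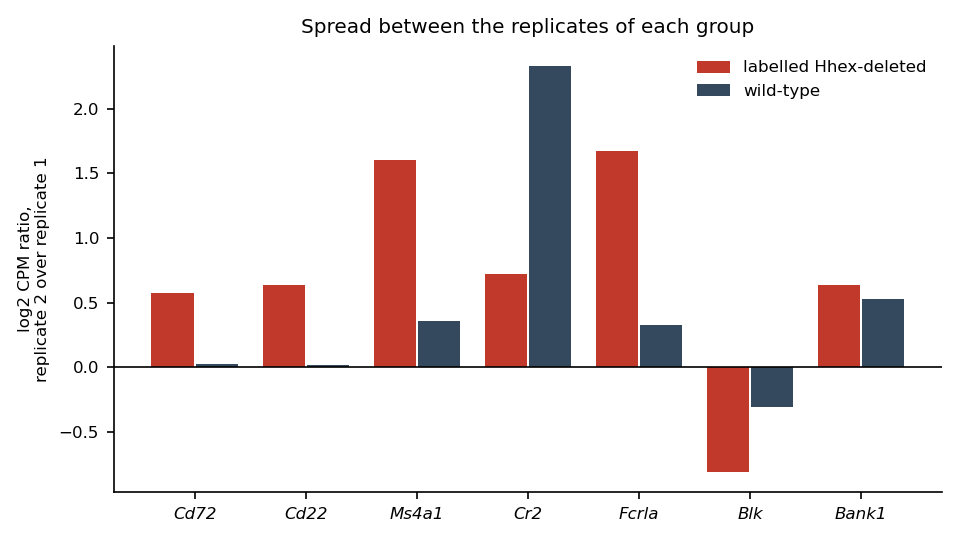
Log2 ratio of CPM in replicate 2 over replicate 1 for each gene (x axis), in the labelled-deleted libraries (left bar) and in wild-type (right bar). Blk is the gene with bars below 0 in both groups, and the tallest bars are Cr2 in wild-type (2.33) and Fcrla in the labelled-deleted libraries (1.68).

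Marker lists of other cells were read beside this spread. Labelled-deleted replicate 2 was also above replicate 1 in the summed CPM of each of the 6 lists used. The 16 mature myeloid markers summed to 408 and 798 CPM in the labelled-deleted libraries and to 896 and 1456 CPM in wild-type, where Ly6g had 0 reads in labelled-deleted replicate 1. The 10 markers of plasmacytoid dendritic cells summed to 363 and 456 CPM in the labelled-deleted pair, against 434 and 391 CPM in wild-type, and none of the 10 was at 0. That list had 0 of 9 tested genes past edgeR's test and 3 at an unadjusted p under 0.05, where 15.8% of all tested genes were. Of the 9, 7 had a positive and 2 a negative log2 fold change, with a median of 0.73. Irf8 had -0.75 on the log2 scale, Cox6a2 0.91, Siglech 0.85 and Pacsin1 0.73. DESeq2 called 1 of the 9 lower and limma-voom 0. Its Ccr9, a chemokine receptor gene, had 5.41 and 64.8 CPM in the labelled-deleted pair, against 2.92 and 2.24 CPM in wild-type. The 8 plasma cell markers summed to 221 and 243 CPM in the labelled-deleted pair, against 211 and 285 CPM in wild-type, with none at 0. The 7 matched red cell markers summed to 277 and 376 CPM in the labelled-deleted pair, against 239 and 321 CPM in wild-type, with none at 0 and 0 of 7 past edgeR's test, at an adjusted or an unadjusted p, or past DESeq2's or limma-voom's. The 12 LSK markers summed to 2519 and 3113 CPM in the labelled-deleted pair, against 2493 and 2392 CPM in wild-type, with none at 0.

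The 12 T cell markers summed to 130 and 153 CPM in the labelled-deleted pair, against 60.9 and 57.3 CPM in wild-type, and most of that sum was Lat, an adaptor that mast cells and platelets also use. The defining T cell receptor chain gene Cd3e had 2 and 8 reads in the labelled-deleted libraries and 0 and 3 in wild-type, and Cd8b1 had 0 reads in both labelled-deleted libraries and in wild-type replicate 1. Of the 6 T cell markers tested, 3 had a positive and 3 a negative log2 fold change, with a median of -0.08. Cd6, a T cell surface receptor gene, had 26 and 22 reads in the labelled-deleted pair, against 60 and 67 in wild-type, and did not pass (log2 difference -1.48, edgeR adjusted p = 0.0671), and Cd4 had -0.48 on the log2 scale without passing. In the other direction, Cd2 had a log2 difference of 1.94 ± 0.4 (SE, edgeR adjusted p = 0.0681) and did not pass either. Of the 15 mature myeloid markers tested, 3 were higher and 0 lower by edgeR, yet 10 had a negative log2 fold change, and the median was -0.34. Among these 10, none past the test, Itgam, an integrin gene, had -0.67, the receptor gene Csf1r -1.21 and the neutrophil gene S100a8 -1.70 on the log2 scale. Genes past edgeR's test in these marker lists were Lat (log2 fold change 1.64), the plasma cell marker Sdc1 (2.45), the complement genes of the myeloid list C1qa, C1qb and C1qc (2.27, 2.08 and 2.22) and the LSK marker Cd48 (0.63), all higher. The calls of Sdc1 and Cd48 were lost without wild-type replicate 1 or 2, and those of the C1q genes without wild-type replicate 2 (edgeR adjusted p = 0.0713 to 0.0994). The part of these cells in the members' values was not tested.

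The later genes were then set beside an early B lineage list of 19 genes, of which 14 were higher, 0 lower and 5 not past edgeR's test, with a median log2 fold change of 2.49. The early genes are known to have risen from earlier results of these data, so their count is a yardstick for the same libraries and not independent evidence. Pax5, which commits cells to the B lineage, differed by 4.04 ± 0.46 on the log2 scale (SE, edgeR adjusted p = 0.0169), and Ebf1, which acts before it, by 3.43 ± 0.35 (SE, edgeR adjusted p = 0.013). Igll1, a surrogate light chain gene, had a log2 fold change of 3.25 ± 0.19, the interleukin 7 receptor gene Il7r 2.98 ± 0.18 and Vpreb1, whose near copy Vpreb2 can share its reads, 2.78 ± 0.2 (SE). The highest member of the later set, Blk at 1.12, was below each of the 14 early genes past the test, the lowest of which was Dntt at 2.03. Of the 5 early genes not past it, Ly6d (1.26) and Irf4 (1.19) lay close to Blk, and Foxo1 (0.51), Cd79b (0.32) and Cd24a (-0.34) lay below it. The count of early genes past the test was lowest, 10, without wild-type replicate 1 and highest, 15, without labelled-deleted replicate 1, and that of the later genes was 0 whichever library was left out. The difference between the lists was not tested.

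**Figure D3:**
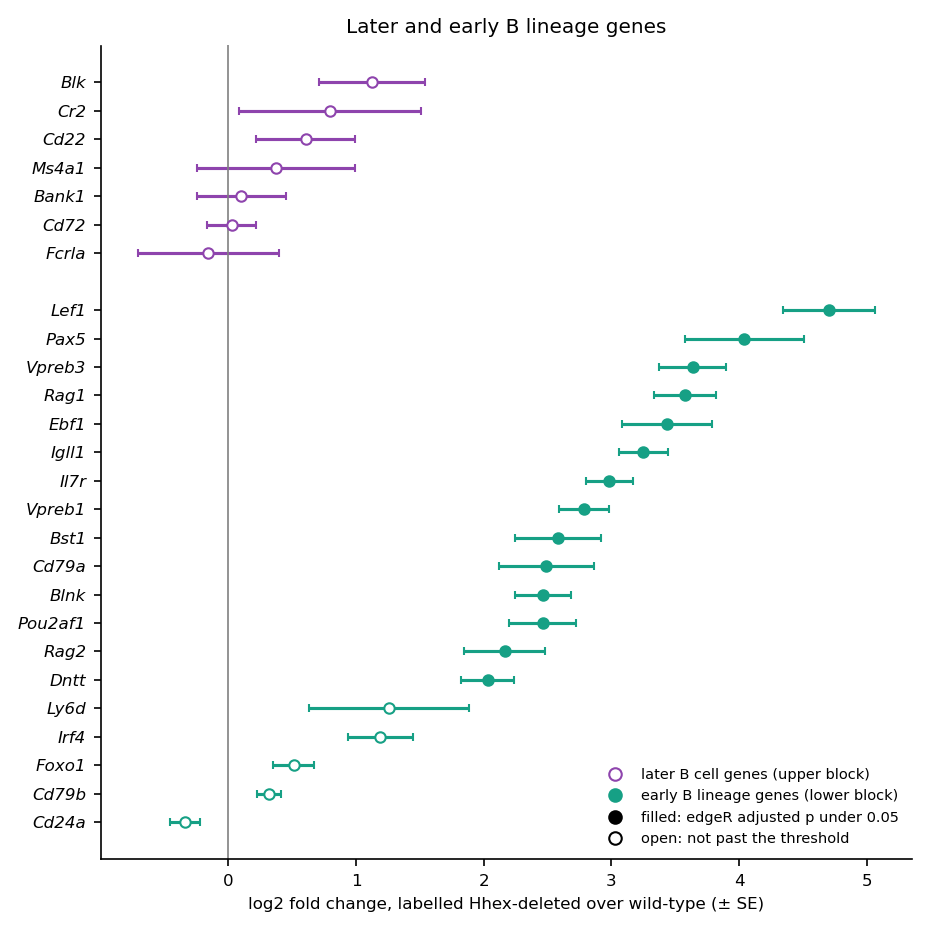
Log2 fold change with its SE (x axis) for the 7 later B cell genes (upper block) and the 19 early B lineage genes (lower block), labelled-deleted over wild-type. Filled points passed edgeR's test: 0 in the upper block, from Fcrla at -0.16 to Blk at 1.12, and 14 in the lower block, from Dntt at 2.03 to Lef1 at 4.7.

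Most partners of the members in receptor signalling did not pass edgeR's test, which only 2.6% of all tested genes passed in either direction. Of 17 co-receptor and inhibitory partner genes counted here, 0 were higher and 0 lower by edgeR, with a median log2 fold change of 0.05. At an unadjusted edgeR p under 0.05 there were 6 of the 17, against 15.8% of all tested genes. DESeq2 called 3 of the 17 lower and limma-voom 0, where they called 6.63% and 1.35% of all tested genes in either direction. Cd81, a tetraspanin gene whose product sits with complement receptor CD21, had a log2 fold change of 0.11, beside 0.80 for Cr2, and neither passed edgeR's test.

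Ptpn6 and Inpp5d, the phosphatases that inhibitory receptors recruit, had log2 fold changes of -0.10 ± 0.08 and 0.15 ± 0.09 (SE), and neither passed the test. Siglecg, a lectin related to Cd22, had a log2 difference of -0.58 ± 0.12 (SE, edgeR adjusted p = 0.0671), and its CPM of 26.1 and 29.3 lay below the 38.2 and 44.8 of wild-type. The inhibitory Fc receptor gene Fcgr2b had a log2 fold change of -0.64 ± 0.16 (SE) and Pag1, an adaptor that binds the kinase Csk, 0.39 ± 0.11 (SE), and neither passed. Lair1, an inhibitory collagen receptor gene, had a log2 fold change of -0.67 and did not pass either.

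Of 19 genes of the B cell receptor and its proximal signalling, 2 were higher and 0 lower by edgeR, with a median log2 fold change of -0.07. These were Cd79a, a signalling chain of the receptor, with a log2 difference of 2.49 ± 0.37 (SE, edgeR adjusted p = 0.0361), and the adaptor gene Blnk with 2.46 ± 0.22 (SE, edgeR adjusted p = 0.00802). Both are also in the early B lineage list and are counted among its 14 higher genes. The Cd79a call was lost when labelled-deleted replicate 2 (edgeR adjusted p = 0.051), wild-type replicate 1 (0.0886) or wild-type replicate 2 (0.0713) was left out, and then 1 gene was called. Per length, Cd79a had 6.94 and 11.8 RPKM in the labelled-deleted libraries, against 1.24 and 2.08 RPKM in wild-type, levels below those of Cd72 in the same libraries (24.8 and 37.0 RPKM, against 30.1 and 30.6 RPKM in wild-type).

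The other receptor chain gene, Cd79b, which is also in the early list, had a log2 fold change of 0.32 and did not pass. Dapp1, an adaptor gene, had a log2 difference of 0.43 ± 0.09 (SE, edgeR adjusted p = 0.0651). Pik3ap1, an adaptor related to Bank1, had a log2 difference of -0.46 ± 0.12 (SE, edgeR adjusted p = 0.115), beside 0.10 for Bank1.

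Among 6 tested Src family kinase genes other than Blk, Yes1 was higher and none was lower. It stood at 10.96 and 17.8 CPM in the labelled-deleted pair, against 4.12 and 4.66 CPM in wild-type, a difference of 1.71 ± 0.27 on the log2 scale (SE, edgeR adjusted p = 0.0361), and the call was lost without wild-type replicate 1 (0.138) or replicate 2 (0.152), which left 0. Lyn, the Src family kinase most used by the B cell receptor, had a log2 fold change of -0.07 ± 0.08 (SE). Fyn had a log2 difference of 0.49 ± 0.1 (SE, edgeR adjusted p = 0.0641), and Src and Lck had log2 fold changes of -0.59 and 0.56 without passing. Frk did not pass the filter on low counts.

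**Figure D4:**
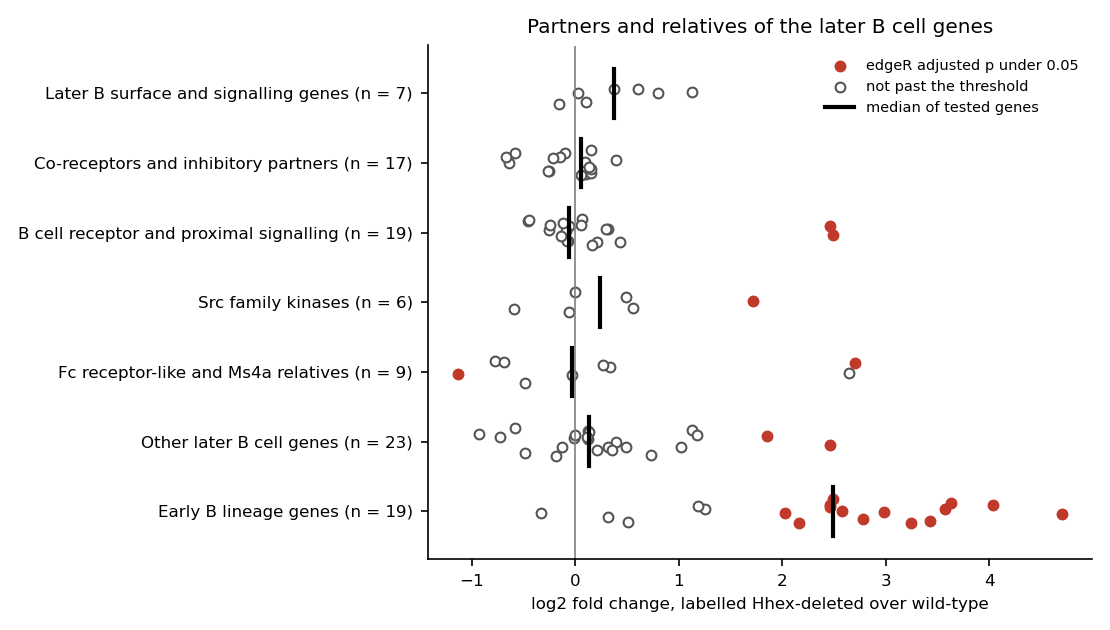
Log2 fold change, labelled-deleted over wild-type (x axis), of every tested gene in 7 lists (rows), with the median as a black line and genes past edgeR's test in red. The top row, the later B cell genes, has no red point, and the bottom row, the early B lineage genes, has 14. Cd79a, Blnk and Pou2af1 are red in the bottom row and again in the row of another list.

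Relatives of Fcrla and Ms4a1 were read as families, with 9 of 17 genes tested, 1 higher and 1 lower by edgeR. Fcrl1, a surface relative of Fcrla, had 58 and 100 reads in the labelled-deleted libraries and 54 and 64 reads in wild-type, and a difference of 0.33 ± 0.33 on the log2 scale (SE, edgeR adjusted p = 0.738). Fcrlb had 1 and 5 reads in the labelled-deleted pair, against 2 and 1 in wild-type, and Fcrl5 had 0 and 2 reads in the labelled-deleted pair, against 0 and 3 in wild-type, too few for a fold. Fcrl6, singled out after its values were seen, had 10 and 23 reads in the labelled-deleted pair, against 0 and 0 in wild-type. Its pooled labelled-deleted CPM was 10.4 times a floor of 3 reads over both wild-type libraries. That floor covers counting error in wild-type only, not that of the labelled-deleted reads, so 10.4 is not a lower bound. Fcrl6 was below the filter and not tested.

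Within the Ms4a cluster, 1 gene passed edgeR's test as higher and 1 as lower. Ms4a2, a chain of the receptor for immunoglobulin E on mast cells and basophils, stood at 50.3 and 44.9 CPM in the labelled-deleted pair, against 7.59 and 7.001 CPM in wild-type, a difference of 2.71 ± 0.12 on the log2 scale (SE, edgeR adjusted p = 0.00183). Ms4a3, a gene of granulocyte and monocyte progenitors, stood at 275 and 237 CPM in the labelled-deleted pair, against 489 and 637 CPM in wild-type, with a log2 difference of -1.14 ± 0.15 (SE, edgeR adjusted p = 0.0253). The Ms4a3 call was lost without labelled-deleted replicate 1 (0.073) or replicate 2 (0.126). Ms4a1, at 0.24 and 0.73 CPM in the labelled-deleted pair, against 0.328 and 0.42 CPM in wild-type, was far below both and did not pass. Ms4a6c and Ms4a6b, with log2 fold changes of -0.69 and -0.48, did not pass either (edgeR adjusted p = 0.057 and 0.0641).

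Of 23 tested genes of 26 in a wider list of later B cell genes, 2 were higher and 0 lower by edgeR, with a median log2 fold change of 0.13. These 2 genes encode transcription regulators. Pou2af1, a co-activator that is also in the early list, stood at 13.4 and 20.8 CPM in the labelled-deleted pair, against 2.85 and 3.36 CPM in wild-type, with a log2 difference of 2.46 ± 0.26 (SE, edgeR adjusted p = 0.0139). Spib, an Ets family factor gene that plasmacytoid dendritic cells also use, had a log2 difference of 1.85 ± 0.3 (SE, edgeR adjusted p = 0.0371), and its call was lost when labelled-deleted replicate 2 (0.0767), wild-type replicate 1 (0.138) or wild-type replicate 2 (0.111) was left out.

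Tested surface genes of that list did not pass edgeR's test, where 2.6% of all tested genes passed in either direction. Of the 23 tested genes of the whole list, with Pou2af1 and Spib, 9 had an unadjusted edgeR p under 0.05. The share among all tested genes was 15.8%. Fcer2a, the low-affinity receptor for immunoglobulin E on mature B cells, had 0.274 and 0.73 CPM in the labelled-deleted pair, against 0.401 and 0.315 CPM in wild-type, and Ighd, the heavy chain constant gene of mature naive B cells, had 1.99 and 3.02 CPM in the labelled-deleted pair, against 1.13 and 1.16 CPM in wild-type (log2 fold change 1.13 ± 0.33 SE, edgeR adjusted p = 0.157). Cd40, a co-stimulatory receptor gene, had 3 and 14 reads in the labelled-deleted pair, against 7 and 3 in wild-type and was below the filter. Cd55, a complement regulator, had a log2 fold change of 1.18 ± 0.22 (SE) and Ly86, a partner of a Toll-like receptor relative, -0.93 ± 0.2 (SE), with edgeR adjusted p-values of 0.063 and 0.0757.

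Patterns over the 4 libraries were compared for the 3 members with a mean of at least 1 CPM, as the root mean square distance of log2 CPM centred on each gene's mean, among 74 B lineage and signalling genes. Bank1 lay closest to Pirb, an inhibitory receptor gene of B and myeloid cells, at 0.066 and next to Ccr7, a chemokine receptor gene, at 0.149. Cd72 lay closest to Sh3bp5, which encodes a binding partner of the kinase Btk, at 0.126 and next to Ptpn18, a phosphatase gene, at 0.131. Fcrla lay closest to Btla, an inhibitory receptor gene of lymphocytes, at 0.313, and next to Sh3bp5 at 0.342. Btla had 3.46 and 20.4 CPM in the labelled-deleted libraries, against 9.995 and 12.1 in the wild-type pair, so like Fcrla it had its lowest and highest values in the labelled-deleted libraries. With 4 libraries such likeness is a description only.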

How the data were processed

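Libraries were prepared from RNA of the sorted cells with Illumina's TruSeq RNA kit, per the labels. The authors deposited raw read counts per Entrez gene with gene lengths, and a log2 RPKM table per library. Subread, featureCounts and limma are named, with the build mm9, in the submitters' processing notes, which give no versions or roles. Strand setting, handling of reads that match several genes, and any further scaling of the log2 RPKM values were not stated.

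Counts of the 4 libraries were tested in R 4.3.3 with edgeR 4.0.16: filterByExpr by group (minimum count 10, minimum total 15), TMM factors, and a robust quasi-likelihood fit with group as its single term. P-values were adjusted by Benjamini-Hochberg over 14912 genes, with a threshold of 0.05. SEs were approximated as the absolute log2 fold change over the root of F. The range given for Cd72 is 1.96 SE to each side, which is narrower than a 95% interval with 2 libraries a group. RPKM values are CPM divided by the deposited gene length in kilobases. Poisson intervals are exact at 95%, and intervals and floors cover counting error only, since reads carry no molecular identifiers. A permutation test of 2 against 2 libraries cannot give a two-sided p under 0.333 and was not used. Alternatives were DESeq2 1.42.0, limma-voom (limma 3.58.1), limma on the deposited log2 RPKM, RLE scaling, no low-count filter, a replicate block and leaving out each library. The fits were tested on simulated counts. Changes were put only into genes with a mean of at least 1 CPM, a level that Ms4a1, Cd22, Blk and Cr2 did not reach. That test therefore does not show how well changes in these members would be found.

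Members and lists were chosen with earlier results of these data known. The text names all members, up to 4 genes of each list by unadjusted p, direct relatives and partners of the members, and nearest patterns. Genes named outside this rule (Fcrl6, Ccr9, Cd3e, Cd8b1, Ly6g, Cd79b, Cd24a, Foxo1, Ly6d, Csf1r, S100a8, Cd40, Fcer2a, Ighd, Dntt, Lef1, Pax5, Ebf1, Gm2962 and Tesk1, and the sorted Kit and Ly6a) were chosen after their values were seen. The red cell entry Hbb-bt was not matched. Some genes of these lists are not reported here and are left out of the lists' counts, medians and figures. Promoters and gene neighbours came from RefSeq tables of GRCm38, a build other than the authors'.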

Additional observations from a re-analysis of the deposited data

How the results depend on the processing

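The count of later B cell genes past the threshold was 0 in both directions under every alternative run. Over those that kept all libraries, no member's log2 fold change turned sign. With a library left out it ran from -0.63 to 0.95 for Ms4a1, 0.26 to 0.89 for Cd22, -0.28 to 0.29 for Cd72, 0.66 to 1.48 for Blk, -0.25 to 0.40 for Bank1, 0.07 to 2.38 for Cr2 and -1.22 to 0.45 for Fcrla, with the lowest edgeR adjusted p at 0.165 (Blk). The deposited log2 RPKM tables gave no value for Ms4a1, Cd22, Blk and Cr2. Why these values moved was not tested.

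Over all genes, counts higher and lower were 221 and 167, and they were 493 and 495 with DESeq2, 123 and 79 with limma-voom, 114 and 65 with the log2 RPKM values, 284 and 272 with no filter, and 84 to 366 and 40 to 231 with a library left out. With DESeq2, lower counts were 3 for co-receptors, 3 for the Fc receptor-like and Ms4a list, and 1 each for other later B cell, dendritic and myeloid genes, and higher counts were 2 for Src kinases, 3 for plasma cell and 2 for LSK markers. With no filter, 1 co-receptor gene was lower, and higher counts were 2 for Src kinases and 2 for plasma cell markers, with 2 higher and 2 lower in the Fc receptor-like and Ms4a list. With limma-voom or the log2 RPKM values, 1 receptor signalling gene, 0 Src kinases and 1 other later B cell gene were higher, and with the log2 RPKM values 0 of the Fc receptor-like and Ms4a list were lower. Also with no filter and with DESeq2, 3 receptor signalling genes were higher.

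With a library left out, higher counts ran from 1 to 3 for receptor signalling, 0 to 2 for Src kinases, 1 to 2 for other later B cell genes, 10 to 15 for early B lineage genes, 0 to 2 for plasma cell markers, 0 to 2 for dendritic markers, 0 to 3 for myeloid markers, 0 to 1 for red cell markers and 0 to 5 for LSK markers. Lower counts ran from 0 to 1 for co-receptors, for the Fc receptor-like and Ms4a list, and for other later B cell, dendritic and myeloid genes.

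With the replicate block, counts over all genes were 185 and 130, no member was called, and 0 genes of the Fc receptor-like and Ms4a list were lower, 3 other later B cell genes and 2 plasma cell markers higher, 1 dendritic marker lower and 0 LSK markers higher. The differences between replicates 2 and 1 in the groups had a correlation of 0.359 across tested genes, which are not independent replicates. The labels do not say that a number marks a shared litter, batch or day. Depth limits the 6 members other than Cd72, each with at most 77 reads per library.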
